A study of Rattus norvegicus with 4 samples.

Results

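The major histocompatibility complex (MHC) and antigen presentation genes of the S16 cell line were taken as every listed gene whose symbol begins with RT1-, the rat MHC, together with B2m, Tap1, Tap2, Tapbp, Erap1, Psmb8, Psmb9, Psmb10, Nlrc5, Cd74, Ciita, Cd1d1 and Fcgrt. The rule found 54 of the 30708 genes listed. Of these, 31 were RT1 class I genes (2 classical class Ia genes, RT1-A1 and RT1-A2, and 29 class Ib genes), 10 were RT1 class II genes, 9 belonged to the class I pathway, 2 were class I-like molecules encoded outside the MHC and 2 belonged to the class II pathway. S16 cells are rat Schwann cells that grow as an immortalized line, and poly(A) RNA of 2 unmodified S16 populations was sequenced. One population was at passage 9 and was the parental line of the rSOX-4 mutants, which are S16 clones with an enhancer deleted, and the other was an older culture at passage 39. Each population had 2 libraries that the labels call technical replicates, numbered 1 and 2. Both populations were grown to confluence in standard medium without any added cytokine named in the labels, and neither carried an edit or a treatment. Values are RPKM, reads per kilobase of gene length and per 1000000 reads. The mutant and clonally expanded lines were not analysed here.

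Class I molecules consist of a heavy chain and the light chain B2m and display peptides from the cytosol to CD8+ T cells and natural killer cells. Proteasomes cut those peptides, the Tap1 and Tap2 transporter carries them into the endoplasmic reticulum, Erap1 trims them and tapasin (Tapbp) helps to load them. Class II molecules display peptides from endosomes to CD4+ T cells, are chaperoned by the invariant chain Cd74 and are switched on by the transactivator Ciita, and they are known mainly from professional antigen-presenting cells. Schwann cells are known to carry class I and to gain class II under interferon gamma. Interferons also raise the immunoproteasome subunits Psmb8, Psmb9 and Psmb10 and the class I transactivator Nlrc5.

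The libraries held between 34.2 and 41.4 M reads (M, 1000000), as recovered from the RPKM values. The recovery takes the least whole read counts that fit the deposited values, and a multiplier shared by all 4 libraries would not show. Intervals below are exact Clopper-Pearson 95% intervals of these reads, and they cover counting error only. The libraries went against their labels. Between 2 libraries that carry the same number at different passages, the mean chi-square per gene over the MHC and antigen presentation genes with at least 20 reads was 0.700 for number 1 and 1.50 for number 2, where counting alone gives 1. Between the libraries labelled as technical replicates of one passage it was 11 at passage 9 and 8.96 at passage 39. Over all genes the means were 1.12 and 1.36 within a number and 64.9 and 62.2 within a passage. The medians within a passage lay closer together, at 6.42 and 4.96 for the MHC and antigen presentation genes and 9.82 and 9.13 over all genes. The sets were not matched for read depth, so their sizes are not compared. According to the study's methods, the technical replicates were pooled and sequenced over a pair of lanes. What sets number 1 apart from number 2 is not stated there, and the values below are therefore given by library, by passage and by number. With 1 population per passage there was no replicate check of the passages and no test was run. The labels name the source as a myelinating Schwann cell, and Schwann cell markers were high, with the peripheral myelin gene Pmp22 at 1255 ± 5.46 RPKM (SD, n = 2 populations) and the neurotrophin receptor Ngfr at 283 ± 3.68 RPKM. Sox10, the Schwann cell transcription factor, was at 176 ± 3.75 RPKM. The SDs here and below are over population means that each average both numbers. They leave out the difference between number 1 and number 2.

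Promoter sequences of 6 genes are shown because their levels carry the main contrasts below, between class I and class II and between Tap1 and Tap2. The windows are the 250 bases before the transcription start in RefSeq (GRCr8), a later build than the rn5 build of the deposited values, and are written 5′ to 3′ on the strand of the gene. Capitals mark every match, on either strand, to 4 motifs known from MHC promoters. These are the Y box (ATTGG), the core of the X2 box (TGACG), an interferon-stimulated element (GAAA repeated after a gap of 2 bases) and the NF-kB site of the class I enhancer, the 10-letter run in capitals in the windows of RT1-A2 and RT1-CE16. The windows are B2m at chr3:129549080-129549329 (+), RT1-A2 at chr20:4872621-4872870 (+), RT1-CE16 at chr20:3265444-3265693 (-), Tap1 at chr20:4668544-4668793 (-), Tap2 at chr20:4652297-4652546 (-) and RT1-Da at chr20:4515165-4515414 (+).
B2m: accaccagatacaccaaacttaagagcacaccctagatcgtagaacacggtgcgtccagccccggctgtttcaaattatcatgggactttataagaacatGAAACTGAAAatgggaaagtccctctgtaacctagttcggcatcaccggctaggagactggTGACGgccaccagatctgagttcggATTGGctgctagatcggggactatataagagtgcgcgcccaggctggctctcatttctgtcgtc
RT1-A2: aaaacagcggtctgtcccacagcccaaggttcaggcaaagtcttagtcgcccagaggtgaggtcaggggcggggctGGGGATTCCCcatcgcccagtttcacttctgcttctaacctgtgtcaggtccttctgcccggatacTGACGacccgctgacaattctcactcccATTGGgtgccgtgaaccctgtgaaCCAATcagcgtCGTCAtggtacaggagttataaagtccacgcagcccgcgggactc
RT1-CE16: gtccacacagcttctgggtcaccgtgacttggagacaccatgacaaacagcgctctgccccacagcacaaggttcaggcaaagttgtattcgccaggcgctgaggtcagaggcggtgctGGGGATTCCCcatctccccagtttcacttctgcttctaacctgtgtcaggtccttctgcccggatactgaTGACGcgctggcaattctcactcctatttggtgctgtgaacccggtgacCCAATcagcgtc
Tap1: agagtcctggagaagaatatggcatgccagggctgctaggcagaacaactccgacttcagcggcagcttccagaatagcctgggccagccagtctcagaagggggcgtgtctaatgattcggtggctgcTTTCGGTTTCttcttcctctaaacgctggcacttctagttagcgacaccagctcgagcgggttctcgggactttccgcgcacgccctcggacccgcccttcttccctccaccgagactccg
Tap2: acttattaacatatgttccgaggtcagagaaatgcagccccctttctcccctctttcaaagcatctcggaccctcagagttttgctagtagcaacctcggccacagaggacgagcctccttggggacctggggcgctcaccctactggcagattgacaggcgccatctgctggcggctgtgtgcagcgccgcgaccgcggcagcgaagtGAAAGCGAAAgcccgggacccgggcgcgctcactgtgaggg
RT1-Da: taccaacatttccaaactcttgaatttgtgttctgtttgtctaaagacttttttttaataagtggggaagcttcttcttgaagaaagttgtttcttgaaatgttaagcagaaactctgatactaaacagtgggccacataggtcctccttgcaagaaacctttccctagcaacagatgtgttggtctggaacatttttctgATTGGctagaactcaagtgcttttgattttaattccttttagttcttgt
A promoter entry was found for 46 of the 54 genes, among them 27 of the class I, 7 of the class I pathway and 9 of the class II genes. The Y box was in 17 of 27 class I, 2 of 7 class I pathway and 9 of 9 class II promoters, against 34% of all 33469 promoters. The X2 core was in 6 of 27, 2 of 7 and 1 of 9, against 18.2% of all. The interferon-stimulated element was in 3 of 27, 5 of 7 (B2m, Psmb10, Tap1, Tap2 and Tapbp) and 0 of 9, against 3.41% of all. The NF-kB site was in 6 class I promoters, RT1-A1, RT1-A2, RT1-CE4, RT1-CE10, RT1-CE13 and RT1-CE16, and in 0.102% of all promoters. Of these 6, RT1-CE13 was listed at 0 in every library and the other 5 were among the 7 RT1 genes with the highest levels. Of those 7, RT1-CE7 had no promoter entry and RT1-CE5 had no match to the NF-kB site. In the B2m window the interferon element lay 150 to 141 bases, the X2 core 89 to 85 bases and the Y box 64 to 60 bases before the start. RT1-Da held only a Y box, 49 to 45 bases before the start. A match describes these letters and was not tested as a site. Whether a match bears on the level of a gene was not tested, and the RT1 genes are close relatives, so their matches are not independent.

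Among the 54 genes, 17 had a mean of at least 1 RPKM, 23 were above 0 and below 1 RPKM, and 14 were listed at 0 in every library. Of all 30708 genes, 11025 reached 1 RPKM and 10375 were listed at 0 in every library, both somewhat larger shares. All 17 belonged to class I or to its pathway, or were class I-like: both class Ia genes, 8 of 29 class Ib genes, 6 of 9 class I pathway genes and Fcgrt. No class II gene reached 1 RPKM. A value of 0 is read only as a gene listed at 0, since Rps6, a ribosomal protein gene that every cell uses, was also listed at 0 in every library (1 of 73 ribosomal protein symbols).

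**Figure D1:**
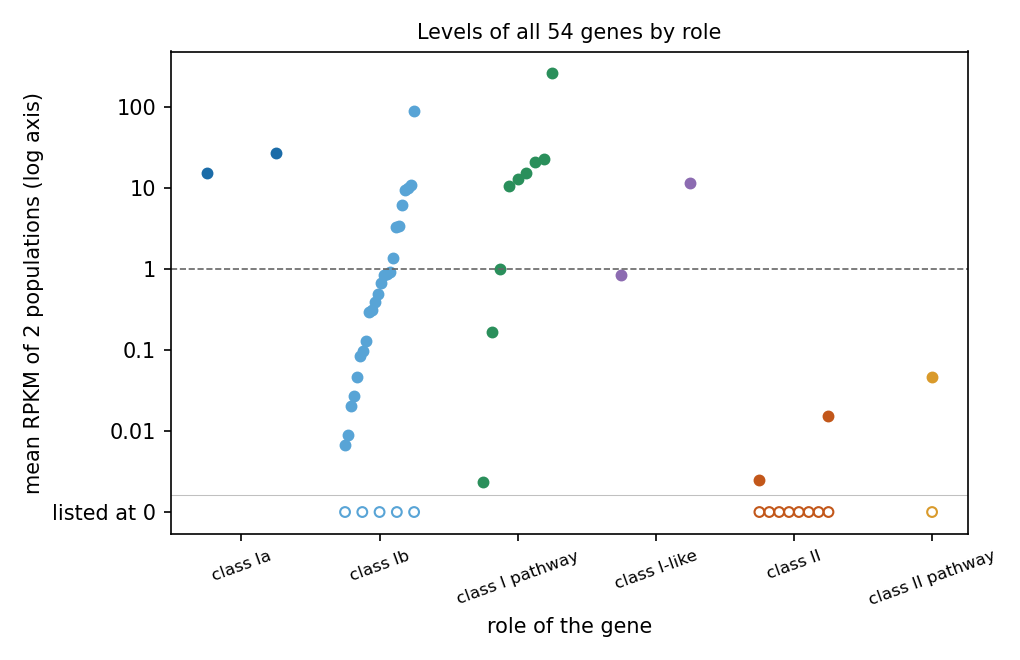
Mean RPKM over the 2 populations (log axis) of each of the 54 genes, grouped by role, with open circles for genes listed at 0 in every library and a dashed line at 1 RPKM. The class I, class I pathway and class I-like genes spread from 0 to 257 RPKM, whereas 8 of the 10 class II genes lie at 0 and the other two below the line.

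B2m, the class I light chain, was the most abundant of the 54 genes at 257 ± 0.918 RPKM (SD, n = 2 populations), rank 134 of all genes. It stood at 265 and 249 RPKM in technical replicates 1 and 2 of passage 9 and at 266 and 245 RPKM in those of passage 39. Both libraries numbered 1 were thus above both numbered 2, and the passages overlapped. Rank and level are per gene length, so that genes may be set side by side.

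RT1-CE16, a class Ib gene of the C/E region, was the highest heavy chain at 89.3 ± 1.20 RPKM, 3.30-fold above the next. Its libraries read 85.1 and 95.3 RPKM for passage 9 against 83.9 and 93.1 RPKM for passage 39. It made up between 48.7% and 49.8% of the summed class I RPKM in the 4 libraries. The classical class Ia genes, which present most cytosolic peptides to CD8+ T cells, came next. RT1-A2 was at 27.1 ± 0.699 RPKM, with 26.3 and 28.8 RPKM for passage 9 against 25.4 and 27.7 RPKM for passage 39. RT1-A1 was at 15.3 ± 0.201 RPKM, with 14.2 and 16.6 RPKM for passage 9 against 13.8 and 16.4 RPKM for passage 39. Together these class Ia genes made up between 23.2% and 23.7% of class I RPKM. In all 3 genes the libraries numbered 2 were the higher ones at both passages.

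Below them came 7 further class Ib genes. RT1-CE7 was at 10.9 ± 0.333, RT1-CE10 at 9.88 ± 0.247, RT1-CE5 at 9.31 ± 0.0904, RT1-CE4 at 6.17 ± 0.296, RT1-N3 at 3.42 ± 0.190, RT1-CE2 at 3.25 ± 0.113 and RT1-M3-1 at 1.36 ± 0.0343 RPKM. Among them RT1-CE10 had 8.72, 11.4, 9.05 and 10.4 RPKM and RT1-N3 had 2.89, 3.67, 3.07 and 4.03 RPKM in technical replicates 1 and 2 of passage 9 and then of passage 39, with both libraries numbered 2 the higher ones. RT1-CE4 had 5.69, 7.07, 6.14 and 5.77 RPKM, and its 7.07 RPKM in technical replicate 2 of passage 9 stood above the other 3 libraries. RT1-M3-1 belongs to the family whose mouse counterpart presents N-formylated peptides of bacteria. In this order the ranges over libraries overlapped for RT1-CE7 and RT1-CE10 (10.1 to 12.1 against 8.72 to 11.4 RPKM), for RT1-CE10 and RT1-CE5, and for RT1-N3 and RT1-CE2, so these neighbours did not differ beyond the spread over all 4 libraries. Within a library RT1-CE7 was above RT1-CE10 in 4 of 4, RT1-N3 above RT1-CE2 in 3 of 4 and RT1-CE10 above RT1-CE5 in 2 of 4. The other 6 steps lay outside it, from 1.40-fold (RT1-A1 over RT1-CE7) to 3.30-fold.

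Of the class Ib genes under 1 RPKM, RT1-T24-1 was the highest at 0.900 RPKM, with 0.713 and 1.20 RPKM for passage 9 against 0.601 and 1.09 RPKM for passage 39. RT1-CE1 followed at 0.862 RPKM, with 0.706, 0.782, 0.646 and 1.31 RPKM in the same order of libraries. Psmb8, an immunoproteasome subunit described further on, was also just under the minimum and stood above both at 0.982 RPKM. The other 14 class Ib genes above 0 lay between 0.00669 (RT1-M10-1) and 0.847 RPKM (RT1-CE6). RT1-CE13, RT1-M1-2, RT1-M1-4, RT1-M1-5 and RT1-M4 were listed at 0. RT1 genes are close relatives and highly polymorphic, and a read that fits several of them equally was counted for none. How far this moved the level of each RT1 gene, and how the S16 alleles differ from the reference, was not tested. In the RefSeq gene table (GRCr8) 7 of the 17 genes at or above 1 RPKM overlapped another gene model, among them RT1-CE4, RT1-CE5 and RT1-CE7, which overlap one another's models in part, and the counting ignored strand.

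**Figure D2:**
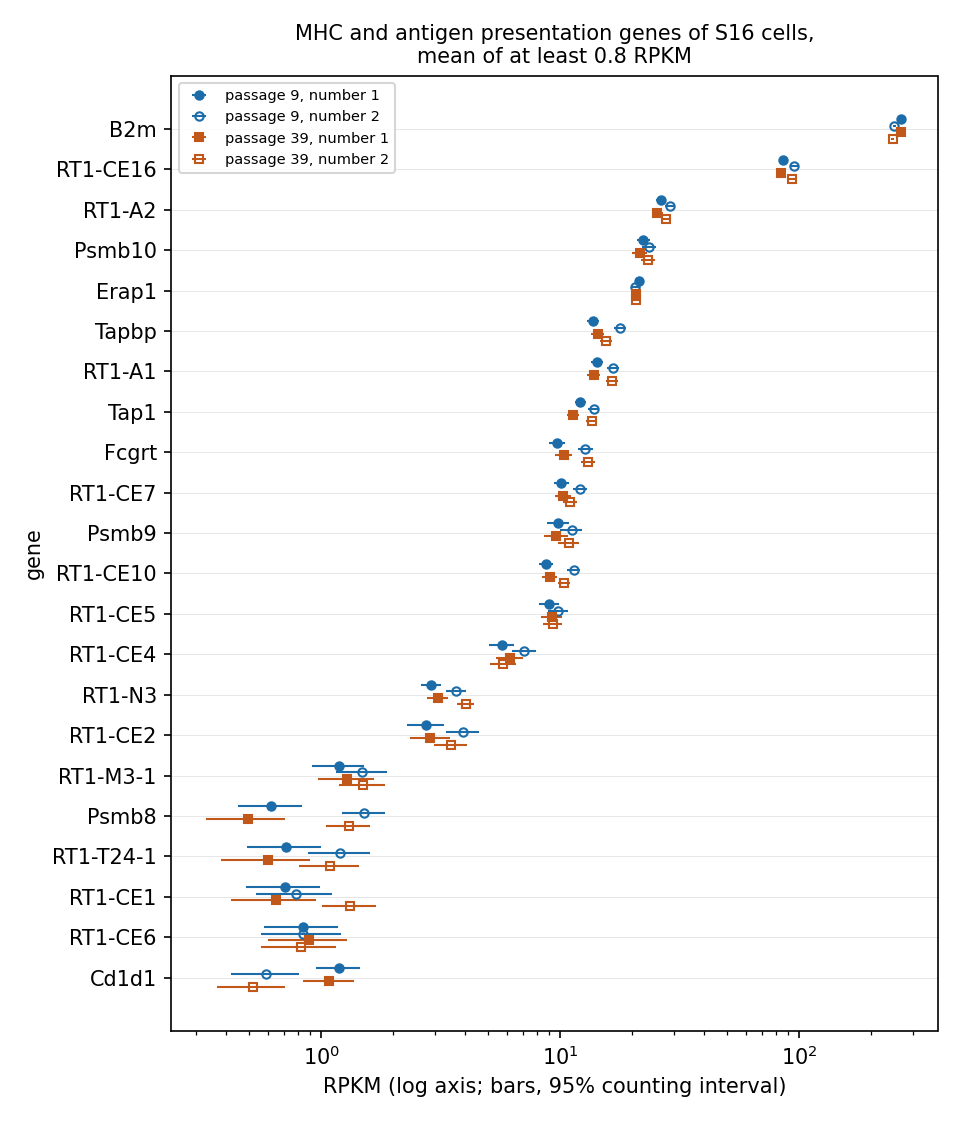
RPKM (log axis) of each gene whose mean reached 0.8 RPKM in the 4 libraries, with circles for passage 9, squares for passage 39, filled symbols for technical replicate 1, open symbols for technical replicate 2 and bars for the 95% counting interval. The passages lie on each other, and in most genes the open symbols lie to the right of the filled ones, with B2m and Cd1d1 the other way round.

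Summed over the 31 class I genes, the level was 171 and 196 RPKM for passage 9 against 169 and 189 RPKM for passage 39, a mean of 181 ± 2.95 RPKM (SD, n = 2 populations). The corresponding sum over the 10 class II genes was 0.0380, 0, 0.0230 and 0.00987 RPKM. The log2 ratio of the mean sums was 13.3. In reads, class II held 2, 0, 1 and 1 against 10089, 9889, 8285 and 11193 for class I. Class II thus had 4 of 39460 RT1 reads, or 0.0101% (95% interval 0.00276% to 0.0260%). These 4 reads were 3 in RT1-Db1 (2 and 1 in the libraries numbered 1 of passages 9 and 39) and 1 in RT1-Db2. Both are beta chains of the D molecule, the rat counterpart of HLA-DR. Its alpha chain RT1-Da was listed at 0, as were both chains of the B molecule (RT1-Ba and RT1-Bb), the peptide editor chains RT1-DMa and RT1-DMb, their modulators RT1-DOa and RT1-DOb, and RT1-Ha. The ratio rests on the 2 class II genes with any read, and no value is set for the 8 listed at 0.

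The class II pathway genes were near 0 as well. Ciita, the class II transactivator, was listed at 0 in every library. Cd74, the invariant chain, was at 0.0336 and 0.0396 RPKM for passage 9 against 0.0609 and 0.0507 RPKM for passage 39, from 2, 2, 3 and 3 reads. Neither passage nor number separated these values beyond counting error. Nlrc5, the class I transactivator, had more reads, 72 and 22 at passage 9 and 44 and 28 at passage 39. Its levels were 0.269, 0.0970, 0.199 and 0.105 RPKM, higher in both libraries numbered 1 than in both numbered 2. Nlrc5 overlaps 2 other gene models in the RefSeq table.

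The peptide supply genes were uneven. Tap1, one chain of the peptide transporter, was at 12.7 ± 0.368 RPKM, with 12.1 and 13.8 RPKM for passage 9 against 11.3 and 13.5 RPKM for passage 39. Tap2, its obligate partner, had 1, 0, 0 and 1 reads over 5209 bp, or 0.00464, 0, 0 and 0.00467 RPKM. The Tap1 level was 2609-fold and 2897-fold that of Tap2 in the 2 libraries with a Tap2 read. A ratio to 1 read has a wide counting error. Only uniquely mapped reads were counted for Tap2 as for the RT1 genes, and how far this and the S16 alleles moved its value was not tested. Tap1 and Tap2 both lie on chromosome 20 in the MHC, and neither overlaps another gene model in the RefSeq table.

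Tapasin (Tapbp) was at 15.3 ± 0.566 RPKM, with 13.7, 17.8, 14.3 and 15.6 RPKM in technical replicates 1 and 2 of passage 9 and then of passage 39. Erap1, the trimming peptidase, was nearly even over the libraries at 21.3, 20.6, 20.8 and 20.8 RPKM. Fcgrt, the neonatal Fc receptor, which pairs with B2m but binds immunoglobulin G rather than peptide, was at 9.70 and 12.7 RPKM for passage 9 against 10.4 and 13 RPKM for passage 39. Its libraries numbered 2 were above those numbered 1 at both passages. In Cd1d1 the order was the reverse. Cd1d1, which presents lipids to natural killer T cells and is named here after its values were seen, was lower in number 2, with 1.19 and 0.590 RPKM for passage 9 against 1.08 and 0.517 RPKM for passage 39 (90, 38, 68 and 39 reads).

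The immunoproteasome subunits differed among themselves. Psmb10 was at 22.6 ± 0.325 RPKM, with 22.3, 23.4, 21.5 and 23.3 RPKM in the order of libraries above. Psmb9 was at 10.3 ± 0.171 RPKM, with 9.79, 11.1, 9.63 and 10.8 RPKM. Psmb8 was at 0.619 and 1.51 RPKM for passage 9 against 0.493 and 1.30 RPKM for passage 39, from 44, 91, 29 and 92 reads, so that its libraries numbered 2 were 2.53-fold those numbered 1 on average. Set against the constitutive subunit that each replaces, Psmb6 was 1.32 to 1.62 times Psmb9, Psmb7 was 5.28 to 7.16 times Psmb10, and Psmb5 was 155 to 349 times Psmb8. The constitutive subunits were uneven themselves, with Psmb5 at 200, Psmb6 at 15.4 and Psmb7 at 142 RPKM on average. The ratios therefore follow the level of both subunits of a pair. How far counting only unique reads moved these levels was not tested. The Psmb9 to Tap1 ratio stayed between 0.799 and 0.852 over the 4 libraries.

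**Figure D3:**
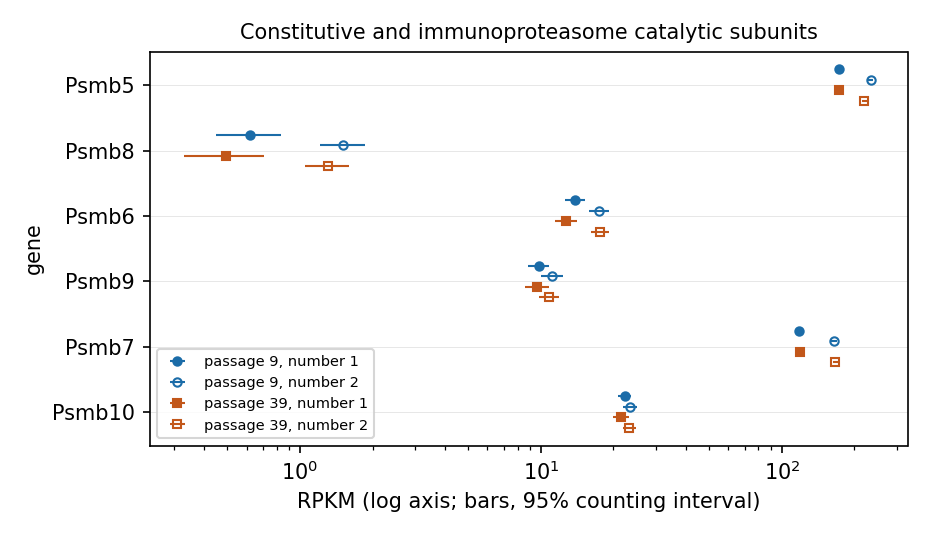
RPKM (log axis) of the 3 constitutive catalytic proteasome subunits, each above the immunoproteasome subunit that replaces it, in the 4 libraries (circles, passage 9; squares, passage 39; filled, technical replicate 1; open, technical replicate 2; bars, 95% counting interval). Psmb6 and Psmb9 lie close together, while Psmb5 is 155 to 349 times Psmb8. Psmb6 also lies far below Psmb5 and Psmb7.

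Between the passages none of the 17 genes at or above 1 RPKM differed by 2-fold on the log2(RPKM + 1) scale, a scale that understates the change of low genes. Over all 11025 genes at or above that minimum, 0% were 2-fold higher and 0.00907% were 2-fold lower at passage 39. The differences of the 17 genes lay between -0.08 (RT1-CE4) and 0.09 (RT1-N3), with a median of -0.03 against -0.0021 for all genes. In 0 of the 17 did both libraries of one passage lie above both of the other, against 3.1% of all genes in favour of passage 39 and 3.11% in favour of passage 9. The summed class I level was 183 RPKM at passage 9 and 179 RPKM at passage 39. Class II had 2 reads at each passage. Within technical replicate number 1 and within number 2, taken as pairs, the passages again gave 0 genes with a 2-fold difference.

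Between the technical replicate numbers, averaged over the passages, 0 of the 17 genes differed by 2-fold either, where 0.363% of all genes were 2-fold higher and 0.726% 2-fold lower in number 2. Smaller differences ran mainly one way. Both libraries numbered 2 lay above both numbered 1 in 14 of the 17 genes (82.4%, against 57.2% of all genes), and B2m alone was the other way round (30.5% of all genes). Both 95% counting intervals of number 2 lay above both of number 1 in 5 genes, RT1-A1, RT1-CE10, RT1-CE16, Tap1 and Fcgrt (29.4%, against 32.5% of all genes), and below both in B2m (17.8% of all genes in that direction). By passage the intervals lay apart in none of the 17 (0% of all genes). Under the minimum, Psmb8 (log2 difference 0.63, number 2 higher) and Cd1d1 (-0.46) had intervals that lay apart by number as well.

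By size, the log2 differences of number 2 minus number 1 were 0.33 for Fcgrt, 0.30 for RT1-CE2, 0.29 for RT1-N3, 0.27 for RT1-CE10, 0.24 for Tapbp, 0.22 for RT1-A1 and 0.21 for Tap1. The other class I genes, Psmb9 and Psmb10 lay between 0.07 (RT1-CE5) and 0.16, Erap1 was at -0.02 and B2m at -0.10. The median over the 10 class I genes was 0.16, over the 6 class I pathway genes 0.13 and over all genes 0.10. The class I sum was 13.1% higher in number 2 while B2m was lower, so that B2m stood at 1.55 and 1.57 times the class I sum in number 1 and at 1.27 and 1.30 times in number 2. Reads that fit several RT1 genes equally are missing from the class I sum. How far this moved the ratio was not tested.

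**Figure D4:**
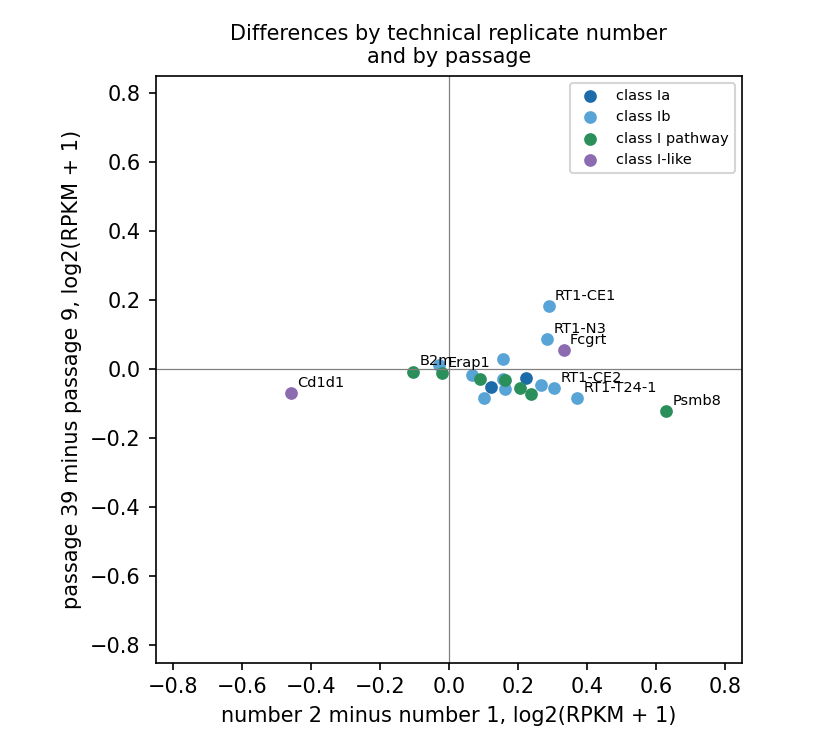
Log2(RPKM + 1) differences of the genes whose mean reached 0.8 RPKM, number 2 minus number 1 on the horizontal axis and passage 39 minus passage 9 on the vertical axis, coloured by role, with equal scales. The genes spread along the horizontal axis, from Cd1d1 at -0.46 to Psmb8 at 0.63, and stay close to 0 on the vertical axis.

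The direction by number depends on how the libraries are scaled, since the RPKM of a library sum to different totals. All 10 class I genes were higher in number 2 as deposited, 9 with median-ratio scaling and 7 after scaling to a common sum, where RT1-A2, RT1-CE4 and RT1-CE5 turned, and the median of all genes moved from 0.10 to 0.03 and to -0.03. Relative to the median of all genes, 8 of the 10 were above it under each of the 3 scalings. B2m was lower in number 2 under each of them.

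Gene length moved with the number as well. Over all genes the median difference of number 2 minus number 1 fell from 0.27 for lengths of 500 to 1000 bp to 0.22, 0.20, 0.14 and 0.04 in the next classes (limits 1500, 2000, 3000 and 6000 bp) and to -0.15 from 6000 bp on. The 10 class I genes had lengths of 1093 to 3460 bp. After subtraction of the median of genes of like length, 5 of the 10 class I genes were higher and 5 lower in number 2, with a median of -0.03. B2m then stood at -0.29, RT1-CE5 at -0.17, RT1-N3 at 0.17, RT1-CE10 and Fcgrt at 0.13 and Tap1 at 0.09. The part of length in these differences was not tested further.

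**Figure D5:**
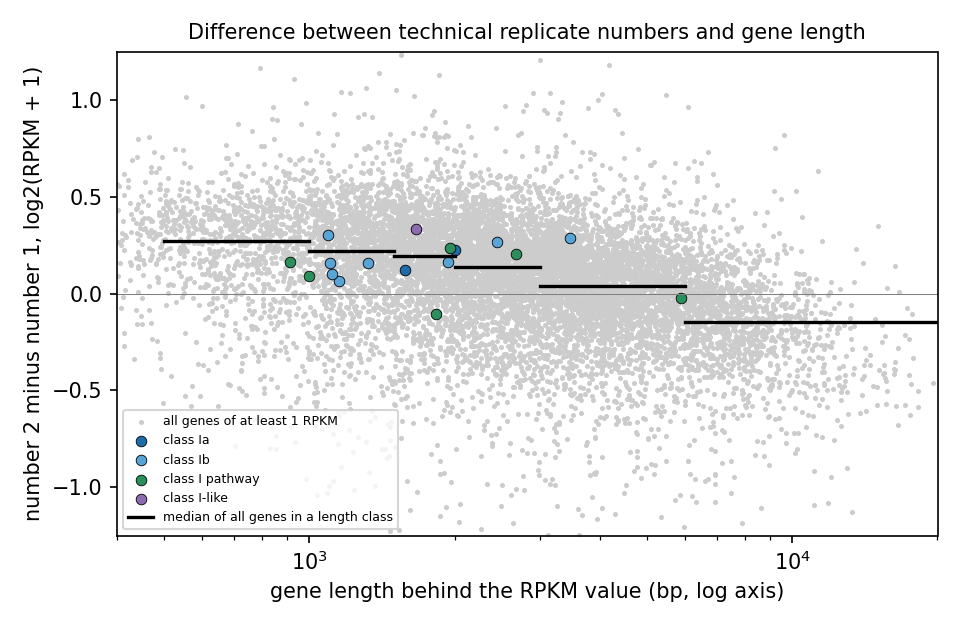
Difference of number 2 minus number 1 on the log2(RPKM + 1) scale against the gene length behind the RPKM value (log axis), with all genes of at least 1 RPKM in grey, the MHC and antigen presentation genes coloured by role and black lines at the median of all genes in 6 length classes. The medians step down from 0.27 to -0.15, and B2m lies below its class while RT1-N3 lies above.

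Of 13 further genes of peptide loading and class I processing, 11 were at or above 1 RPKM. Calreticulin (Calr), a chaperone of the loading complex, was at 856, 972, 863 and 965 RPKM in technical replicates 1 and 2 of passage 9 and then of passage 39. The disulfide isomerase Pdia3 was at 469, 571, 464 and 572 RPKM. The list's median difference by number was 0.29. The intervals lay apart in 9 of the 11 genes with number 2 higher and in none with number 2 lower. Over all genes the shares were 32.5% and 17.8%, without matching for gene length or read depth. After subtraction of the median of genes of like length, Calr stood at -0.02 and Pdia3 at 0.10. Of 8 genes of endosomal processing, which serves class II, 6 were at or above 1 RPKM, led by the cathepsins Ctsb (234 ± 2.58 RPKM) and Ctsd (226 ± 2.05 RPKM). Ctsb was at 220 and 225 RPKM in number 1 and 245 and 247 RPKM in number 2. Ctsd was at 239 and 239 RPKM in number 1 and 216 and 211 RPKM in number 2. March1, a ubiquitin ligase that removes class II from the surface, was listed at 0. That list had a median of -0.01. Of its 6 genes 1 lay apart in each direction, against 32.5% of all genes upwards and 17.8% downwards.

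All 7 promoter factors of MHC genes were at or above 1 RPKM, led by the NF-Y subunits Nfyc (17.2 ± 0.663 RPKM) and Nfya (17 ± 0.271 RPKM), which bind the Y box. The RFX subunits Rfx5, Rfxap and Rfxank, named for their role at the X box, were at 12.5, 11.8 and 8.43 RPKM. The median by number was -0.06. Of the 7 genes 2 lay apart in each direction, against 32.5% of all genes upwards and 17.8% downwards. The lowest of the 7 was Creb1, a factor of the X2 box, at 2.90 RPKM, while Ciita, the coactivator that joins these factors at class II promoters, was listed at 0.

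Of 19 interferon signalling genes 15 were at or above 1 RPKM, led by the interferon gamma receptor chain Ifngr1 (33.5 ± 0.528 RPKM) and the kinase Jak1 (26.7 ± 0.10 RPKM). Ifngr1 was at 31.5 and 31.6 RPKM in number 1 and 36.2 and 34.6 RPKM in number 2. Jak1 was at 24.9 and 25.2 RPKM in number 1 and 28.3 and 28.3 RPKM in number 2. The ligands Ifng and Ifnb1 were listed at 0. The median by number was 0.14, with 5 of the 15 genes apart upwards, a share close to the 32.5% of all genes, and none downwards. Of 24 interferon-stimulated genes 23 were listed and 12 were at or above 1 RPKM. Bst2, which tethers budding virions, was the highest, with 70.8 and 125 RPKM for passage 9 against 70.8 and 117 RPKM for passage 39. Ifi27 was at 40.9 ± 0.207 RPKM, with 44.0 and 46.4 RPKM in number 1 and 38.1 and 35.1 RPKM in number 2. The median of these 12 genes by number was -0.14, against 0.10 for all genes. Of the 12, 1 lay apart upwards (Bst2) and 3 downwards (Ifi27, Parp14 and Gbp2), against 32.5% and 17.8% of all genes. Gbp2, named here after its values were seen, was at 23.6 and 23.7 RPKM in number 1 and 13.3 and 13.2 RPKM in number 2. Of 6 costimulatory and adhesion genes, Icam1 (22.9 ± 0.0543 RPKM) and Icoslg (2.20 ± 0.0292 RPKM) were at or above 1 RPKM. Icam1 was at 19.2 and 19.3 RPKM in number 1 and 26.5 and 26.6 RPKM in number 2. Icoslg was at 2.47 and 2.62 RPKM in number 1 and 1.89 and 1.83 RPKM in number 2. Of the genes of these lists at or above 1 RPKM, none was 2-fold different between the passages or the numbers on the log2(RPKM + 1) scale. Lower genes were outside that call, among them Usp18, a brake on interferon signalling named here after its values were seen, at 0.668 and 0.770 RPKM in number 1 and 0.0895 and 0.214 RPKM in number 2, with intervals that lay apart.

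The listed markers of other cell types were low, apart from Col1a1, Col3a1 and, at a lower level, Pdgfra of the fibroblast list. The summed level of 8 macrophage and dendritic cell markers was 2.83 to 3.35 RPKM, led by Cd14 (1.53 RPKM) and Cd68 (1.40 RPKM), with Ptprc, Itgam and Emr1 listed at 0. The 3 B cell markers Ms4a1, Cd79a and Cd79b were listed at 0 in every library. The 4 T cell markers summed to 0 to 0.0922 RPKM (Cd3d at 0, Cd3e with 2 reads). Cd3g, a CD3 chain outside that list, was at or above 1 RPKM. The 4 endothelial markers summed to 0.307 to 0.418 RPKM (Cdh5 and Kdr at 0, led by Tek). Of 5 fibroblast markers, Col1a1 was at 3588 ± 32.3 RPKM, Col3a1 at 65.9 ± 0.975 RPKM and the receptor Pdgfra, named with the rest of its list, at 5.35 ± 0.0542 RPKM, whereas Dcn and Lum had 1 and 7 reads. The summed fibroblast list moved with the number, at 3432 and 3445 RPKM in number 1 and 3933 and 3826 RPKM in number 2, a sum that is nearly all Col1a1. The intervals lay apart upwards in Col1a1 and Pdgfra and downwards in Col3a1, which was at 82.8 and 81.9 RPKM in number 1 and 50.3 and 48.5 RPKM in number 2. The 5 Schwann cell markers reported here summed to 1855 and 1843 RPKM in number 1 and to 1848 and 1825 RPKM in number 2. Their median difference was -0.09, with 3 genes apart downwards (S100b, Mag and Ngfr) and 1 upwards (Pmp22). Over all genes 17.8% lay apart downwards and 32.5% upwards. S100b, a calcium-binding protein of Schwann cells, was 2-fold lower in number 2, at 85.7 and 31.8 RPKM for passage 9 against 86.6 and 32.8 RPKM for passage 39. The part of these markers in the class I and B2m differences by number was not tested. In bulk RNA, fewer cells of a type and less RNA per cell cannot be told apart.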

How the data were processed

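Poly(A) RNA of the 2 unmodified S16 populations, 4 libraries, was used. According to the study's methods and the submitters' processing notes, the authors aligned 50-bp single-end reads to rn5 with STAR, kept unique reads, counted them with HTSeq without strand and deposited RPKM values per gene symbol. Versions, gene lengths and read totals are not given in the sources used here. The study gives fewer reads per cell line than the recovered totals, and the reason was not tested.

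Means were taken over the libraries of a passage and then over populations (Python 3.11.15, numpy 2.4.6, pandas 2.3.3, scipy 1.17.1, figures with matplotlib 3.10.9), and differences on log2(RPKM + 1) over genes whose mean reached 1 RPKM. No p-values were computed. Totals and whole reads were recovered for all 20333 genes with a value above 0. The recovery was tested on simulated data of 20333 genes, where 4 of 4 totals and the reads of 96.5% of genes came back exactly. The 2-fold call between technical replicate numbers found 100% of 200 simulated 4-fold changes of genes at or above 5 RPKM and 0 genes without a change. The simulation held counting error only, and a 4-fold change at that level lies well above the call. Smaller changes, changes of lower genes and a spread beyond counting error were not tested by it.

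The genes, roles, lists and motifs were chosen with earlier results of these data known. Named were genes whose mean reached 1 RPKM, every class II gene, Cd74, Ciita and Nlrc5, the 3 highest other genes, and of each list the 2 highest genes and each gene with a 2-fold difference. Exceptions are named as such or by their role. Some genes of the marker lists are not reported here, and the values of those lists are without them. Alternatives were 2 other scalings, other minimums, a pseudocount of 0.1 RPKM, counting intervals, each library left out, passages compared within each number, class Ia genes only and, added after seeing the data, a length correction over 20 length bins.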

Additional observations from a re-analysis of the deposited data

Results flagged for a closer look

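The difference between technical replicate numbers had opposite signs at the passages in 2 of the 17 genes at or above 1 RPKM, and whether the passages differ in it was not tested. For RT1-CE4 it was 0.27 at passage 9 and -0.08 at passage 39 on the log2(RPKM + 1) scale, a difference of -0.35. For Erap1 it was -0.04 and 0.00, a difference of 0.045.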

How the results depend on the processing

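No test was run, and as a description the pairing by technical replicate number (a replicate block) left 0 genes with a 2-fold difference between the passages within number 1 and 0 within number 2. The counts of genes with a 2-fold difference, by passage or by number, were 0 under the other scalings, minimums, pseudocount, left-out libraries and the length correction. Each setting was changed alone. Genes under 1 RPKM were thus counted only on the log2(RPKM + 1) scale, which makes a 2-fold call of low genes unlikely. As plain RPKM ratios Psmb8 was 2.53-fold higher in number 2 and Cd1d1 2.05-fold higher in number 1. A lower minimum together with the smaller pseudocount was not tried. Counted by intervals that lay apart instead, 6 genes differed by number and 0 by passage. The number of genes detected was 17, and 29 with a minimum of 0.1 RPKM. It was 25 after scaling to a common sum, 14 with a minimum of 5 RPKM and 17 to 20 with 1 library left out. The log2 ratio of class I over class II was 13.3, 11.2 with class Ia genes only and 12.6 to 14.5 with 1 library left out (14.5 without replicate 1 of passage 9). It rests on 4 class II reads.

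The sign of the difference by number held under every alternative for 9 of the 17 genes (B2m, Fcgrt, RT1-A1, RT1-CE10, RT1-CE2, RT1-CE7, RT1-N3, Tap1 and Tapbp). For RT1-CE4 it turned from 0.10 to -0.03 without replicate 2 of passage 9, and for no other of the 17 did a left-out library turn it. Scaling to a common sum changes the unit of every level and is left out of the next count. Of the other levels and differences of single genes, 206 values moved by less than the SD over the populations and 210 by more, an SD that is small beside the spread between the libraries of a passage.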
